A study of Homo sapiens with 12 samples.

Results

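The 42 genes described here encode proteins of ribosome biogenesis, and they were chosen by symbol from the 58735 genes of the deposited expression table. Earlier results of these data were known when they were chosen. All 42 symbols were found, and 41 of them had a mean of at least 0.5 FPKM, a read level scaled to gene length and library size, over all libraries and were tested. The exception was NOP2, an rRNA methyltransferase of the large subunit pathway, which had a mean of 0.381 FPKM.

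Ribosomes are made mainly in the nucleolus, where RNA polymerase I transcribes ribosomal DNA into a long precursor RNA. Small nucleolar ribonucleoproteins (snoRNPs) guide the methylation and pseudouridylation of that precursor, and a large set of assembly factors fold it, cut it and load it with ribosomal proteins on separate routes to the small and the large subunit. The pathway is tied to cell growth, and many of its genes are known targets of the MYC family of transcription factors, of which MYCN is the member best known for amplification in neuroblastoma, a tumour of the developing sympathetic nervous system.

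RNA was sequenced from 12 libraries of cultured neuroblastoma cells, in 4 groups of 3. SK-N-SH cells carried either a control hairpin (labelled shNC and wild type) or a hairpin labelled as a knockdown of TSPYL5, which encodes a TSPY-like nuclear protein, and the cells of the other line carried the same pair of labels. That line is named SK_N_BE2 by the titles but SH-SY5Y by the source and cell line labels, and is referred to as the second line. No further agent is labelled, and the labels do not say how the hairpins were delivered, whether a line is a clone, or whether the 3 libraries of a group came from separate cultures, so the spread behind each p-value is that between libraries and may be technical. Depth was 15425460 to 19249018 reads per library, and the tested members were each supported by 284 to 30835 reads in every library.

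In SK-N-SH the level of the targeted gene was opposite to its label. TSPYL5 stood at 13.1, 13.4 and 12.2 FPKM in the SK-N-SH controls and at 17.1, 18.3 and 17.8 in the knockdown-labelled libraries of that line, a rise of 0.43 on the log2 scale (limma, Benjamini-Hochberg adjusted p = 7.45e-06). In the second line the controls had 24.0, 24.4 and 25.8 FPKM and the libraries labelled knockdown 13.3, 12.4 and 12.6, so that it fell by 0.90 (adjusted p = 9.86e-09). Over all tested genes, the Pearson correlation of log2 levels between a library labelled SK-N-SH knockdown and a second line control library was 0.986 to 0.987, and between an SK-N-SH control and a second line knockdown library 0.960 to 0.975. Between the control and labelled knockdown libraries of SK-N-SH it was only 0.705 to 0.724, and in the second line 0.692 to 0.721. The knockdown-labelled SK-N-SH libraries thus stood apart from the controls of their own line, and every direction below is a direction between labels.

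MYCN and MYC, transcription factors of the same family, followed the same split. MYCN was at 988, 1013 and 1082 FPKM in the SK-N-SH libraries labelled knockdown and at 1043, 1072 and 1006 in the second line controls, while the SK-N-SH controls had 0, 0.0813 and 0.0411 FPKM and the second line knockdown libraries had 0 reads in all 3. MYC was at 2.80 ± 0.263 FPKM in the SK-N-SH controls and 3.24 ± 0.370 in the second line knockdown libraries, against 0.257 ± 0.0402 and 0.223 ± 0.0879 in the MYCN-high groups (SD, n = 3 here and throughout). The 12 noradrenergic marker genes, all measured above 0 in both MYCN-high groups, summed to 1360 to 1450 FPKM in the SK-N-SH knockdown libraries and 1490 to 1550 in the second line controls, against 85.5 to 98.6 and 71.9 to 87.5 in the SK-N-SH control and second line knockdown libraries. The 12 mesenchymal markers went the other way in sum, at 304 to 312 and 287 to 317 FPKM in the MYCN-high groups and 3090 to 3540 and 2560 to 3060 in the others. Of the 11 tested, 8 were lower and 2 higher in the SK-N-SH knockdown libraries (39.0% and 40.7% of all genes). In the second line knockdown libraries 9 were higher and 2 lower (39.9% and 40.2%). TH, tyrosine hydroxylase, was listed at 0 in every SK-N-SH control and second line knockdown library, while no mesenchymal marker was at 0 throughout a group. Markers of other cell types were low: 7 Schwann cell genes summed to 1.39 to 2.42 FPKM over all libraries, 9 blood and endothelial genes to 0.0977 to 1.65, and 7 epithelial genes to 0.985 to 1.86 in the MYCN-high groups and 19.8 to 29.6 in the others. The part of these differences in the results below was not tested.

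Since MYC proteins bind the E-box CACGTG, the promoter windows of the members were searched for it. The motif is its own reverse complement, so a match counts for both strands. RefSeq windows (GRCh38.p14, 250 bases before to 50 bases after an annotated start) were available for 36 of the 42 members, and 17 of them held the motif (47.2%), against 12.8% of 9716 tested protein-coding genes and 8.77% of all 27305 genes of the table with a window. The matches lay close to the start, with 16 of 18 beginning within 50 bases of it. In 13 of 36 members (36.1%) a match touched the start base or the 49 bases after it, against 1.87% of the tested protein-coding genes and 1.32% of all. The 9 matches in the members described library by library below are shown 5′ to 3′ on the strand of the gene, with the E-box in capitals. They are shown because 47.2% of the members with a window held the motif. The LYAR match and the upstream EBNA1BP2 match do not lie at the start.
FBL, chr19:39846356-39846385, minus strand: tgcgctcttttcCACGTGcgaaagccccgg
RRP9, chr3:51941892-51941921, minus strand: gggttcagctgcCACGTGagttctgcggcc
GAR1, chr4:109815781-109815810, plus strand: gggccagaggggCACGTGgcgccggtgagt
LYAR, chr4:4290068-4290097, minus strand: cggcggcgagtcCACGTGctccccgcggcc
WDR43, chr2:28894658-28894687, plus strand: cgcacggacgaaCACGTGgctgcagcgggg
PNO1, chr2:68157885-68157914, plus strand: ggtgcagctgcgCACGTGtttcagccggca
MYBBP1A, chr17:4555340-4555369, minus strand: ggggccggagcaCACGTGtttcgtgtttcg
EBNA1BP2, upstream match, chr1:43172790-43172819, minus strand: gatattgttggcCACGTGggatcgaagacc
EBNA1BP2, downstream match, chr1:43172241-43172260, minus strand: gcgattcggtggCACGTGga

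The first base of the motif was 3 bases after the start in WDR43, 6 in FBL, 9 in PNO1, 27 in MYBBP1A and 31 in GAR1, and 5 bases before it in RRP9 and 64 in LYAR. The EBNA1BP2 matches came from windows of separate annotated starts. Its upstream match began 237 bases before its start, and its downstream match began 42 bases after its own. A match describes the letters of the window and is not a measured binding site. In SK-N-SH the median log2 difference of the labelled knockdown from the control was 0.626 over 16 tested members with the motif and 0.623 over 19 without it. In the second line these medians were -0.059 (5 rises and 6 falls) and -0.344 (5 and 10), and for the second line knockdown against the SK-N-SH controls 0.51 and 0.384; none of these pairs was tested. Between the labelled knockdown and control libraries of SK-N-SH, 14 of the 16 members with the motif rose and 2 fell. Of the 19 without it, 15 rose and 4 fell (40.7% and 39.0% of all genes). FBL and WDR43 were among the large rises there, and the 2 falls with the motif were MYBBP1A and EBNA1BP2.

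**Figure D1:**
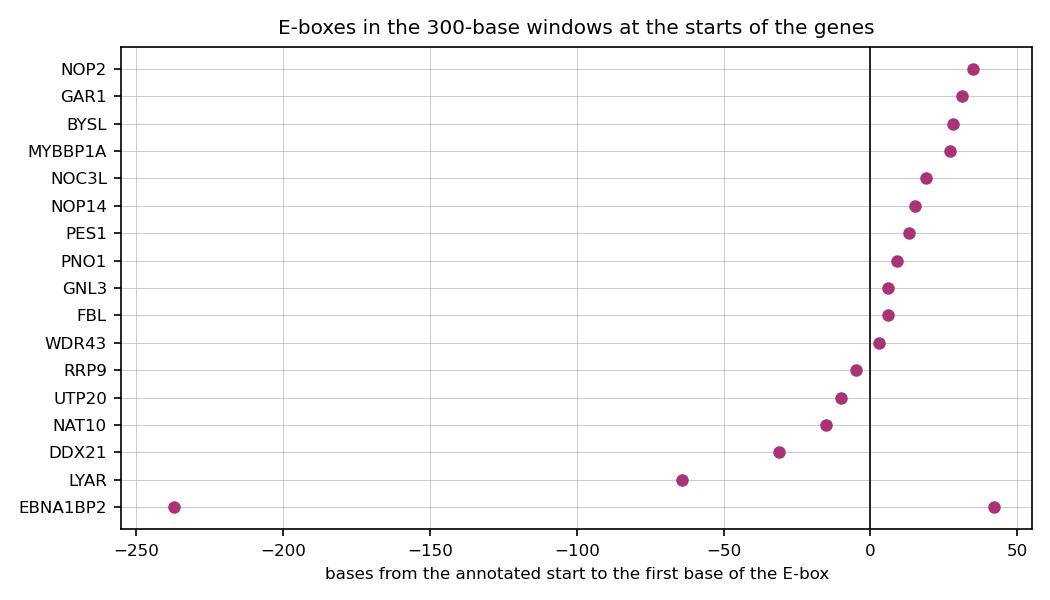
Position of the first base of each E-box (horizontal axis, bases from the annotated start of its own window, with that start at the vertical line). The vertical axis holds the 17 genes with a match. Of the 18 matches, 16 began within 50 bases of the start and 12 at or after it.

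Summed, transcripts of the 42 genes were scarcest in the SK-N-SH control group. They took 0.391 to 0.415% of all reads there, 0.767 to 0.789% in the SK-N-SH knockdown libraries, 0.762 to 0.786% in the second line controls and 0.455 to 0.495% in the second line knockdown libraries. The last group lay above the first without overlap and far below the others. Ordered by mean FPKM, the SK-N-SH control was the lowest of the 4 groups for 31 of 42 genes and the highest for 0, whereas the highest group was the SK-N-SH knockdown for 11, the second line control for 13 and the second line knockdown for 18. These counts include the untested NOP2. The order was not counted over all genes, so how far the members depart from the rest is not known.

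**Figure D2:**
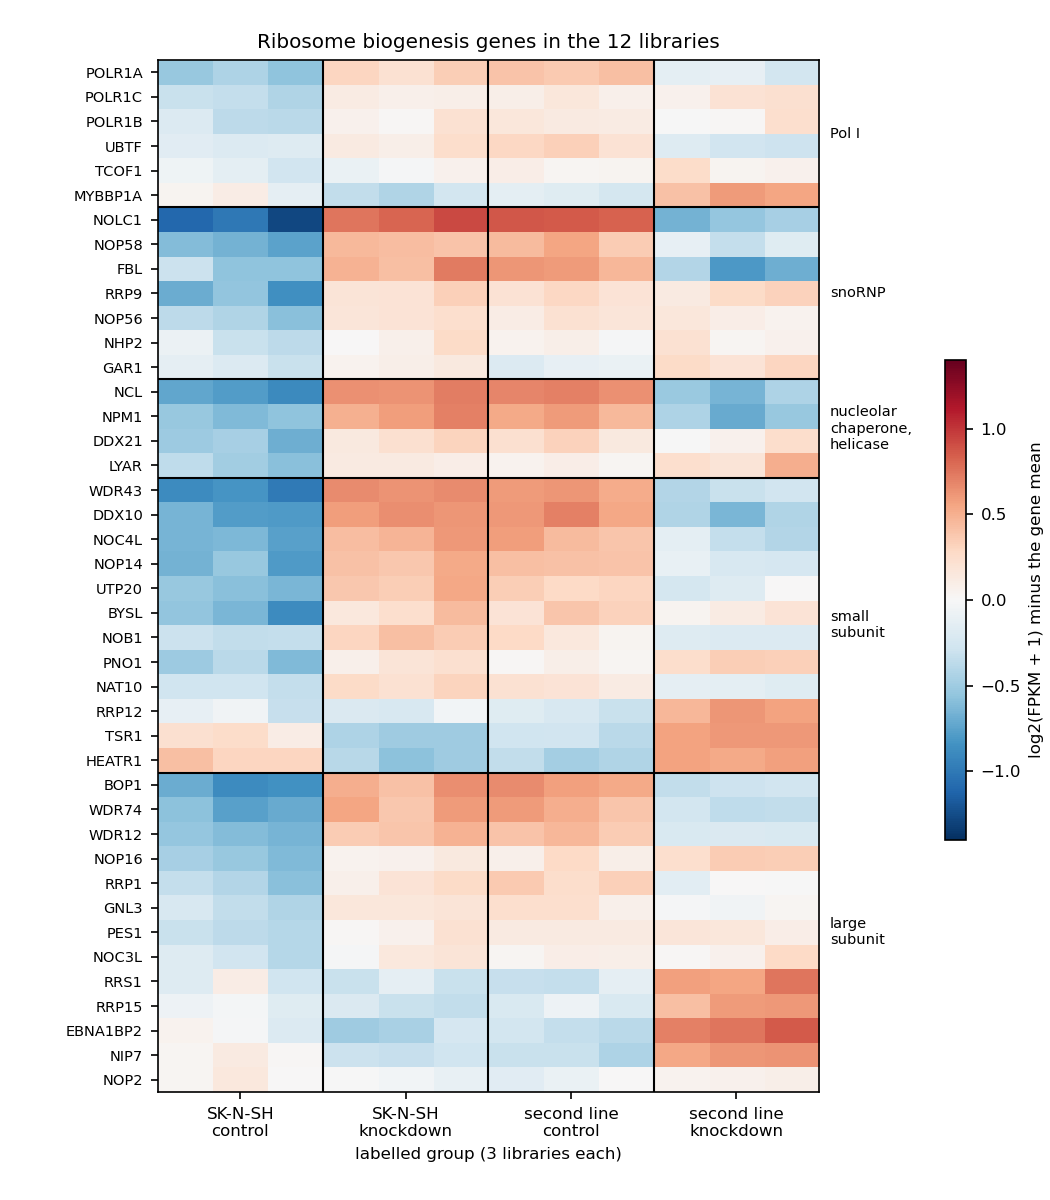
Level of each of the 42 genes (rows, grouped by role) in the 12 libraries (columns, 3 per labelled group), as log2(FPKM + 1) minus the gene's mean. Most rows are lowest in the 3 SK-N-SH controls and alike in the second line control and SK-N-SH knockdown libraries, and genes such as MYBBP1A and EBNA1BP2 are highest in the second line knockdown libraries.

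In SK-N-SH, 32 of the 41 tested members were higher in the libraries labelled knockdown than in the controls, 6 were lower and 3 did not pass the test (limma, Benjamini-Hochberg adjusted p under 0.05 over all genes tested). Of all 15856 tested genes, 40.7% were called higher and 39.0% lower, so that a call as such was common. The members' median log2 difference was 0.623, against 0.021 over all genes, and 13 members rose by a log2 difference of at least 1, which 15.3% of all genes did. No member fell that far, as 15.8% of all genes did. By role, 4 of 6 polymerase I genes rose and 1 fell, all 7 snoRNP genes rose, all 4 nucleolar chaperones and helicases rose, 9 of 12 small subunit factors rose and 2 fell, and 8 of 12 tested large subunit factors rose and 3 fell.

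In the second line the members divided. There 12 were higher in the libraries labelled knockdown, 19 were lower and 10 did not pass the test, at a background of 39.9% higher and 40.2% lower. The median of the members was -0.13 and that of all genes -0.016. Of the falls, 5 were of at least 1 on the log2 scale and of the rises 1, against 14.8% and 17.0% of all genes. The polymerase I genes had 1 rise and 2 falls, the snoRNP genes 1 and 3, the chaperones and helicases 1 and 2, the small subunit factors 4 and 7 and the large subunit factors 5 and 5. Rescaled by total reads, which moved the median of all genes in this comparison from -0.016 to -0.136, the members had 9 rises and 24 falls, and of all genes 35.2% were higher and 45.0% lower.

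The lines share no library, but their directions are not separate readings of a knockdown. Over all genes the SK-N-SH knockdown libraries resembled the second line controls (correlation 0.986 to 0.987). The SK-N-SH controls likewise resembled the second line knockdown libraries (0.960 to 0.975). Opposite directions in the lines were thus frequent over the whole table. Of the 41 members, 19 rose in SK-N-SH and fell in the second line, as did 35.1% of all tested genes, and 6 did the reverse, as did 34.2%. Another 9 rose in SK-N-SH and did not pass the test in the second line (4.69% of all genes), 4 rose in both (0.984%), 2 rose in the second line without passing in SK-N-SH (4.67%) and TCOF1 passed in neither. No member fell in both lines. The difference between the lines was itself tested, and 31 members moved down and 8 up in the second line relative to SK-N-SH, at a background of 43.1% and 41.8% (84.9% of all genes called in either direction). NOLC1 had the most negative difference, -3.37, and HEATR1 the most positive, 1.80.

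Of the polymerase I genes, POLR1A moved most in SK-N-SH and POLR1C and MYBBP1A stood out elsewhere. POLR1A, the largest subunit of the enzyme (ENSG00000068654, chromosome 2, 86020216 to 86106155, minus strand), was at 6.44, 6.96 and 6.24 FPKM in the SK-N-SH controls, 12.2, 11.4 and 12.7 in the SK-N-SH knockdown libraries, 13.2, 12.8 and 13.3 in the second line controls and 8.74, 8.94 and 7.99 in the second line knockdown libraries. The middle groups were far above both others, and the lowest 2 groups did not overlap. It rose 1.85-fold in SK-N-SH (log2 difference 0.79, SE 0.06, adjusted p = 8.26e-08) and was 1.53-fold lower in the second line (adjusted p = 1.81e-06, limma).

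POLR1C, a subunit shared with RNA polymerase III, was at 3.04, 2.99 and 2.74 FPKM in the SK-N-SH controls and at 4.44, 4.27 and 4.29 in the SK-N-SH knockdown libraries. The second line controls, with 4.30, 4.61 and 4.25, overlapped the second line knockdown libraries, with 4.25, 4.78 and 4.86. The SK-N-SH controls alone were low: the rise there was 1.48-fold (adjusted p = 1.63e-05), and the log2 difference in the second line was 0.06 (SE 0.06, adjusted p = 0.326, limma). POLR1B, the second-largest subunit, had the same outline, with means of 9.77, 13.3, 13.7 and 13.2 FPKM in the order SK-N-SH control, SK-N-SH knockdown, second line control and second line knockdown, an order kept for all means below.

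MYBBP1A, a nucleolar MYB-binding protein that takes part in pre-rRNA transcription and processing, went the other way. It was at 16.2, 17.0 and 14.4 FPKM in the SK-N-SH controls, 12.2, 11.6 and 13.0 in the SK-N-SH knockdown libraries, 14.2, 13.8 and 13.2 in the second line controls and 21.3, 24.3 and 23.6 in the second line knockdown libraries. The last group was above every other library. MYBBP1A fell by 0.35 on the log2 scale in SK-N-SH (adjusted p = 0.000710) and rose 1.68-fold in the second line (adjusted p = 1.87e-06, limma). UBTF, the upstream binding factor of ribosomal DNA, had means of 23.3, 29.5, 32.2 and 22.2 FPKM, a rise in SK-N-SH and a fall in the second line. TCOF1, or treacle, which works with UBTF, had means of 11.98, 13.3, 14.0 and 14.7 FPKM and passed the test in neither line.

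The snoRNP group held the member with the widest range. NOLC1, a chaperone that shuttles snoRNPs between nucleolus and Cajal bodies (ENSG00000166197, chromosome 10, 102152176 to 102163871, plus strand), was at 28.8, 30.8 and 25.5 FPKM in the SK-N-SH controls and 106, 112 and 120.3 in the SK-N-SH knockdown libraries. It stood at 116, 115 and 113 in the second line controls and 39.4, 42.9 and 45.3 in the second line knockdown libraries. The high groups overlapped, and the low groups did not. NOLC1 rose 3.98-fold in SK-N-SH (log2 difference 1.96, SE 0.07, adjusted p = 3.95e-10) and was 2.69-fold lower in the second line (adjusted p = 6.31e-09, limma), the largest change of any member in each line by the log2 difference.

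FBL, fibrillarin, the methyltransferase of the box C/D snoRNPs (ENSG00000105202, chromosome 19, 39834458 to 39846414, minus strand), was at 56.7, 47.1 and 47.4 FPKM in the SK-N-SH controls, 99.1, 94.5 and 117 in the SK-N-SH knockdown libraries, 108, 107 and 97.7 in the second line controls and 52.6, 39.8 and 43.4 in the second line knockdown libraries. It formed a high and a low pair of groups, each of which overlapped within itself. The rise in SK-N-SH was 2.06-fold (adjusted p = 4.94e-06) and the second line knockdown libraries were 2.30-fold lower than their controls (adjusted p = 1.24e-06, limma).

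NOP58, a core protein of the same particles, was at 22.3, 21.5 and 20.2 FPKM in the SK-N-SH controls, 47.9, 46.9 and 46.1 in the SK-N-SH knockdown libraries, 47.3, 51.1 and 44.7 in the second line controls and 31.9, 27.3 and 30.8 in the second line knockdown libraries. Its rise was 2.20-fold and its fall 1.59-fold, and in the last group it stood between the extremes. NOP56, the partner of NOP58, had means of 18.9, 30.2, 29.5 and 28.2 FPKM, so that it rose in SK-N-SH (1.60-fold) but did not pass the test in the second line (log2 difference -0.06, SE 0.06).

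RRP9, which binds the U3 snoRNA of early cleavage, showed a step and then a plateau. It was at 15.1, 16.7 and 13.3 FPKM in the SK-N-SH controls, 28.5, 28.6 and 31.6 in the SK-N-SH knockdown libraries, 28.9, 30.9 and 28.6 in the second line controls and 27.4, 30.3 and 31.5 in the second line knockdown libraries. The last 3 groups overlapped at levels well above the first. The rise in SK-N-SH was 1.97-fold (adjusted p = 4.94e-07), while the log2 difference in the second line was 0.01 (SE 0.08, adjusted p = 0.899, limma).

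GAR1 and NHP2 belong to the box H/ACA snoRNPs, which pseudouridylate RNA and take part in telomerase. GAR1 was at 24.0, 22.9 and 21.0 FPKM in the SK-N-SH controls, 27.2, 27.9 and 28.9 in the SK-N-SH knockdown libraries, 22.9, 24.1 and 24.6 in the second line controls and 32.0, 30.1 and 32.8 in the second line knockdown libraries. GAR1 alone in this role group was called higher in both groups labelled knockdown, with rises of 1.24-fold (adjusted p = 0.000382) and 1.32-fold (adjusted p = 4.10e-05, limma). NHP2 had means of 63.2, 81.9, 77.5 and 80.9 FPKM and rose in SK-N-SH only by the test, with 27.4% of its exonic bases shared with RMND5B on the opposite strand.

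**Figure D3:**
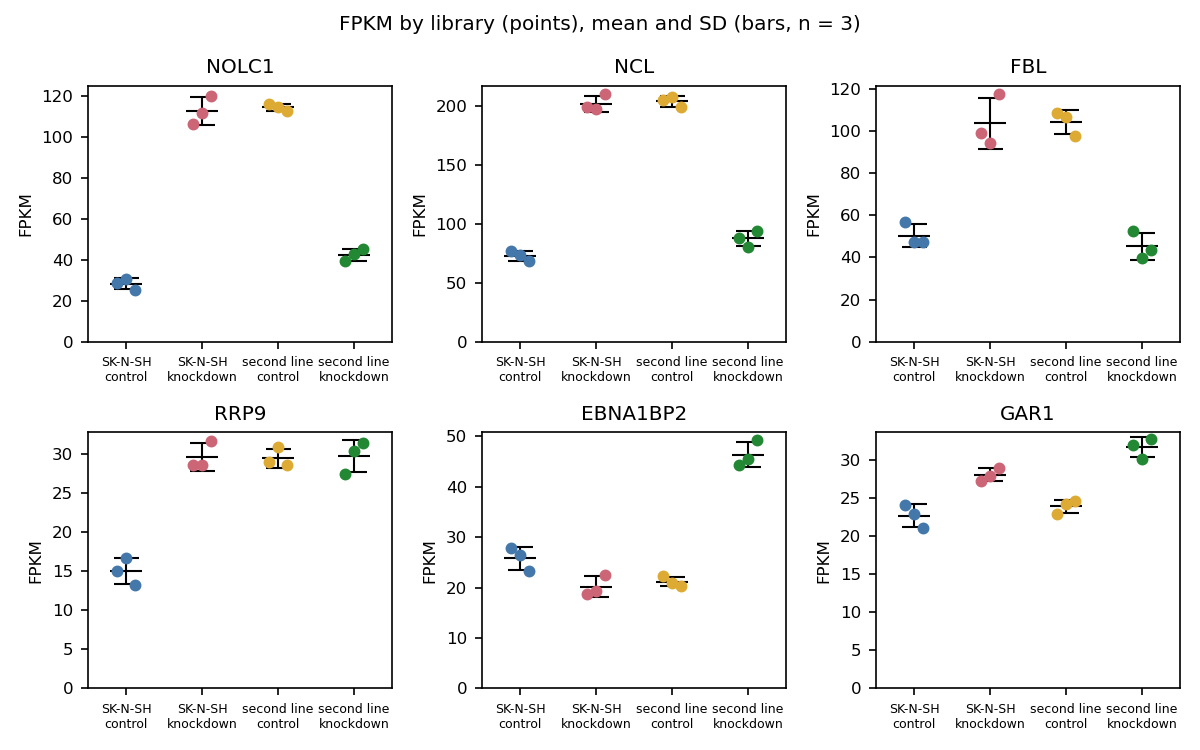
FPKM of 6 genes (vertical axes, from 0) in the 4 labelled groups (horizontal axes); points are libraries, and bars give the mean and SD of 3. NOLC1, NCL and FBL are high in the middle groups, RRP9 is low in the SK-N-SH controls alone, EBNA1BP2 is highest in the second line knockdown libraries, and GAR1 is higher in each group labelled knockdown than in its control.

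Of the 4 abundant nucleolar proteins, NPM1 and NCL rose in SK-N-SH and fell in the second line, LYAR rose in both, and DDX21 rose in SK-N-SH. NPM1, nucleophosmin, a histone and ribosomal protein chaperone and the most abundant member per length, was at 213, 199.9 and 208 FPKM in the SK-N-SH controls, 435, 463 and 502 in the SK-N-SH knockdown libraries, 446, 466 and 420.4 in the second line controls and 227, 188 and 213 in the second line knockdown libraries. Its high and low pairs of groups did not overlap with each other. NPM1 was 2.25-fold higher in SK-N-SH (adjusted p = 5.75e-08) and 2.13-fold lower in the second line (adjusted p = 1.05e-07, limma), and its 45 named pseudogenes, at 42.8 FPKM in sum, leave the division of reads among copies uncertain.

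NCL, nucleolin, which binds nascent pre-rRNA (ENSG00000115053, chromosome 2, 231453531 to 231483641, minus strand), was at 76.9, 74.0 and 68.6 FPKM in the SK-N-SH controls, 199.2, 198 and 210.3 in the SK-N-SH knockdown libraries, 206, 208 and 199.3 in the second line controls and 88.6, 80.8 and 94.2 in the second line knockdown libraries. The latter lay just above every SK-N-SH control. The rise was 2.77-fold (adjusted p = 1.20e-09) and the fall 2.33-fold (adjusted p = 5.48e-09, limma).

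LYAR, a nucleolar zinc finger protein of growing cells, was at 10.1, 9.15 and 8.49 FPKM in the SK-N-SH controls, 14.5, 14.6 and 14.2 in the SK-N-SH knockdown libraries, 13.8, 14.2 and 13.5 in the second line controls and 15.8, 15.1 and 19.3 in the second line knockdown libraries. It rose 1.56-fold in SK-N-SH (adjusted p = 3.62e-05) and 1.21-fold in the second line (adjusted p = 0.0148, limma). Without replicate 3 of the second line knockdown group the latter call was lost (adjusted p = 0.0537), as it was on rescaling by total reads (adjusted p = 0.273). DDX21, an RNA helicase of both polymerase I and polymerase II transcription, had means of 42.5, 73.6, 73.8 and 67.5 FPKM and passed the test in SK-N-SH, with a rise of 1.73-fold, but not in the second line (adjusted p = 0.168).

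Among the small subunit factors, most of which belong to the processome that forms on the early precursor, WDR43 and DDX10 moved most in SK-N-SH. WDR43 (ENSG00000163811, chromosome 2, 28894643 to 28948222, plus strand) was at 13.4, 14.0 and 12.4 FPKM in the SK-N-SH controls, 41.0, 40.1 and 41.2 in the SK-N-SH knockdown libraries, 39.3, 39.8 and 37.0 in the second line controls and 19.0, 20.4 and 21.1 in the second line knockdown libraries. It rose 3.08-fold (adjusted p = 1.89e-10) and fell 1.92-fold (adjusted p = 1.95e-08, limma), which left the last group above the first without overlap.

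DDX10, an RNA helicase, was at 2.87, 2.54 and 2.50 FPKM in the SK-N-SH controls, 8.10, 8.58 and 8.37 in the SK-N-SH knockdown libraries, 8.25, 8.93 and 7.87 in the second line controls and 3.53, 2.89 and 3.55 in the second line knockdown libraries. The rise of 3.16-fold (adjusted p = 6.30e-09) and the fall of 2.51-fold (adjusted p = 3.49e-08, limma) left the second line knockdown libraries just above the SK-N-SH controls. NOC4L, NOP14 and UTP20, which also act in the processome, rose 2.42-, 2.25- and 2.28-fold in SK-N-SH and were 1.76-, 1.55- and 1.43-fold lower in the second line. BYSL, or bystin, rose 2.03-fold in SK-N-SH to a mean of 24.0 FPKM and did not pass the test in the second line (adjusted p = 0.0894). NAT10, the rRNA cytidine acetyltransferase, and NOB1, the nuclease that makes the final cut of the small subunit RNA, rose in SK-N-SH and fell in the second line by less than those 3, with means of 15.5, 23.4, 21.9 and 17.4 FPKM for NAT10 and 18.5, 30.5, 26.4 and 20.5 for NOB1.

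PNO1, the partner of NOB1 in late small subunit maturation, was at 8.97, 9.95 and 8.24 FPKM in the SK-N-SH controls, 14.0, 15.1 and 15.6 in the SK-N-SH knockdown libraries, 13.4, 14.1 and 13.5 in the second line controls and 15.8, 17.1 and 16.9 in the second line knockdown libraries. Both lines had higher levels in the libraries labelled knockdown, by 1.64-fold (adjusted p = 1.52e-06) and 1.22-fold (adjusted p = 0.00245, limma), the latter with an adjusted p of 0.0643 on rescaling by total reads.

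HEATR1 and TSR1 fell in SK-N-SH and rose in the second line. HEATR1, a processome factor also needed for polymerase I transcription (ENSG00000119285, chromosome 1, 236549005 to 236604504, minus strand), was at 19.1, 17.5 and 17.4 FPKM in the SK-N-SH controls, 10.5, 9.10 and 9.65 in the SK-N-SH knockdown libraries, 10.8, 9.75 and 10.2 in the second line controls and 21.1, 20.7 and 21.3 in the second line knockdown libraries. The groups that were high for NOLC1 were low for HEATR1, which was 1.85-fold lower in SK-N-SH (adjusted p = 7.77e-08) and 2.05-fold higher in the second line (adjusted p = 1.74e-08, limma). TSR1, a GTPase-like late factor, had means of 15.9, 9.65, 10.9 and 21.3 FPKM, and RRP12, which helps export both subunits, 8.92, 8.95, 8.41 and 15.2.

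The large subunit factors opened with the PeBoW complex of PES1, BOP1 and WDR12, which is needed to process the large subunit RNA. BOP1 (ENSG00000261236) was at 18.5, 16.2 and 16.7 FPKM in the SK-N-SH controls, 44.2, 41.2 and 48.8 in the SK-N-SH knockdown libraries, 49.2, 46.1 and 45.0 in the second line controls and 24.0, 24.9 and 25.3 in the second line knockdown libraries. The rise was 2.61-fold (adjusted p = 4.98e-09) and the fall 1.89-fold (adjusted p = 1.70e-07, limma). Its partners did not move by the same amounts: WDR12 had means of 5.11, 11.3, 11.2 and 6.99 FPKM, and PES1, at 22.4, 31.1, 31.8 and 32.2 FPKM, rose in SK-N-SH (1.39-fold) and did not pass the test in the second line (adjusted p = 0.763).

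WDR74, a factor of the nucleolar stages, was at 7.69, 6.66 and 6.94 FPKM in the SK-N-SH controls, 18.0, 15.8 and 18.6 in the SK-N-SH knockdown libraries, 18.7, 17.5 and 16.0 in the second line controls and 9.87, 9.13 and 9.23 in the second line knockdown libraries, a rise of 2.46-fold and a fall of 1.85-fold. GNL3, or nucleostemin, a GTP-binding protein of proliferating and stem cells, had means of 21.9, 31.3, 31.6 and 27.5 FPKM, and RRP1 had 7.49, 12.02, 13.3 and 10.1; both rose and fell in turn. NOC3L had 7.32, 9.85, 9.55 and 9.99 FPKM and rose in SK-N-SH only by the test. The untested NOP2 had means of 0.440, 0.335, 0.304 and 0.444 FPKM, and 54.4% of its exonic bases are shared with another gene on the same strand.

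NOP16, a MYC-regulated nucleolar protein, was at 9.43, 8.96 and 8.41 FPKM in the SK-N-SH controls, 13.9, 14.1 and 14.8 in the SK-N-SH knockdown libraries, 14.2, 16.6 and 14.3 in the second line controls and 16.0, 17.5 and 17.4 in the second line knockdown libraries. It rose 1.60-fold in SK-N-SH (adjusted p = 3.29e-06). In the second line, where the groups overlapped, the rise of 1.13-fold had an adjusted p of 0.0336 (limma) and was lost without second line control replicate 1 (0.123) or 3 (0.114) and without second line knockdown replicate 2 (0.0996) or 3 (0.0926). On rescaling by total reads GAR1 alone kept its call among the 4 members that rose in both lines.

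The large subunit also had members that moved against the majority. EBNA1BP2, a scaffold of early large subunit particles (ENSG00000117395, chromosome 1, 43164175 to 43270936, minus strand), was at 27.8, 26.4 and 23.3 FPKM in the SK-N-SH controls, 18.7, 19.2 and 22.5 in the SK-N-SH knockdown libraries, 22.2, 21.0 and 20.4 in the second line controls and 44.3, 45.5 and 49.2 in the second line knockdown libraries. The last group was clear of all others. EBNA1BP2 was 1.28-fold lower in SK-N-SH (adjusted p = 0.00193) and 2.19-fold higher in the second line (adjusted p = 1.23e-07, limma).

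NIP7, a late processing factor, was at 12.7, 13.6 and 12.5 FPKM in the SK-N-SH controls, 9.86, 9.70 and 10.02 in the SK-N-SH knockdown libraries, 9.77, 9.79 and 8.90 in the second line controls and 18.4, 19.6 and 19.6 in the second line knockdown libraries. It was 1.31-fold lower in SK-N-SH (adjusted p = 3.50e-05) and 2.03-fold higher in the second line (adjusted p = 5.82e-09, limma). RRP15 had means of 5.96, 5.09, 5.63 and 9.80 FPKM, and RRS1, a factor of the 5S particle, 19.1, 17.3, 17.1 and 32.6; both rose in the second line, and RRP15 fell in SK-N-SH.

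Overlapping genes are given here in most detail for the members of this minority, since the sources used here do not give whether counting used strand. Of the 6 members that fell in SK-N-SH and rose in the second line, HEATR1, TSR1, NIP7 and EBNA1BP2 share 20.1 to 23.1% of their exonic bases with another gene. In each case the partner with the largest overlap was likewise higher on average in the SK-N-SH control and second line knockdown groups than in the others: LGALS8 beside HEATR1 had means of 8.88, 1.87, 2.33 and 7.18 FPKM, SRR beside TSR1 2.68, 0.559, 0.856 and 2.77, COG8 beside NIP7 5.40, 4.29, 4.46 and 5.85, and CFAP57 beside EBNA1BP2 0.222, 0.00657, 0.0136 and 0.239. The part of these partners in the members' values was not tested. MYBBP1A, with 2.24% of its bases shared, and RRP15, with 0%, showed the pattern without such a partner. Of the members that rose in SK-N-SH, NHP2, WDR74 and NOB1 share 27.4%, 22.2% and 20.2% of their bases. NOP16, POLR1C, NOP14 and PNO1 share 19.9%, 18.2%, 17.1% and 10.4%. AP001160.1 beside WDR74 went as the member did, with means of 0.395, 1.29, 0.978 and 0.322 FPKM. NOP14-AS1 beside NOP14 did not, with 2.81, 2.39, 2.27 and 4.43. The part of these partners was not tested either. Leaving out every member with at least 10% of its exonic bases shared, a choice made after the data were seen, left 25 rises and 2 falls in SK-N-SH and 5 rises and 16 falls in the second line. Fewer members were counted there, so these numbers cannot be set directly against those of all 41. Of all genes, 40.7% rose and 39.0% fell in SK-N-SH, and 39.9% and 40.2% in the second line.

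Comparing the controls, 32 members were higher in the second line than in SK-N-SH, 5 lower and 4 not called, at a background of 40.7% higher and 38.9% lower. The median of the members was 0.546. This comparison shares its libraries with those above, and its values repeat the first groups given for each gene: NOLC1 was 4.04-fold, NCL 2.79-fold and DDX10 3.16-fold higher in the second line control, while HEATR1 was 1.76-fold lower.

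Set across the lines, few genes of the whole table separated the second line controls from the SK-N-SH libraries labelled knockdown, and the members were no exception. By limma 1 member was called higher, 0 lower and 40 were not called, at a background of 2.26% higher and 3.12% lower; at an unadjusted p under 0.05 there were 2 higher and 3 lower, and voom on the recovered reads called 1 and 0. The log2 differences of all 41 members ran from -0.16 for TSR1 to 0.22 for GAR1, with a median of -0.003. GAR1 was the member called, 1.17-fold higher in the SK-N-SH knockdown libraries (adjusted p = 0.0414, limma), and its call was lost without each of the 3 SK-N-SH knockdown libraries in turn and without second line control replicate 2 or 3. These are the groups that shared a high MYCN level, and their noradrenergic and mesenchymal sums are those given above.

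The libraries labelled second line knockdown and the SK-N-SH controls differed more. Of the 41 members, 37 were higher in the second line knockdown libraries, 0 were lower and 4 were not called (UBTF, FBL, NPM1 and NOB1), at a background of 26.9% higher and 17.2% lower; 0 were lower at an unadjusted p under 0.05 and 0 by voom. The members' median log2 difference was 0.465, against 0.024 over all genes. A log2 difference of at least 1 in size was reached by 0 members, and by 1.26% of all genes upwards and 1.23% downwards. All 12 tested large subunit factors were higher, 11 of 12 small subunit factors, 5 of 6 polymerase I genes, 6 of 7 snoRNP genes and 3 of 4 chaperones and helicases. RRP9 was 1.98-fold higher (log2 difference 0.94, SE 0.08, adjusted p = 1.09e-05) and NOP16 1.90-fold (0.85, SE 0.07, adjusted p = 6.06e-06, limma).

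Both groups had the higher MYC level and 0 or nearly 0 MYCN, and both had low noradrenergic and high mesenchymal sums beside the MYCN-high groups. Single markers still differed between them. In the second line knockdown libraries 7 of 12 noradrenergic genes were lower and 2 higher. Of the 11 tested mesenchymal genes, 5 were lower and 2 higher (17.2% and 26.9% of all genes). Of the 4 members not called, FBL had a log2 difference of -0.16 (SE 0.11), NPM1 0.01 (SE 0.08), UBTF -0.07 (SE 0.05) and NOB1 0.14 (SE 0.06). Rescaled by total reads, the members had 32 rises and 1 fall (UBTF, -0.17), with a median of 0.36, and all genes divided into 19.4% higher and 23.1% lower in place of 26.9% and 17.2%. TCOF1, NCL, HEATR1, NAT10 and DDX10 lost their calls under that scaling. DDX10, at 0.25 on the log2 scale, also lost it without SK-N-SH control replicate 3 (adjusted p = 0.0576) and without second line knockdown replicate 1 (0.0510) or 3 (0.0608).

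**Figure D4:**
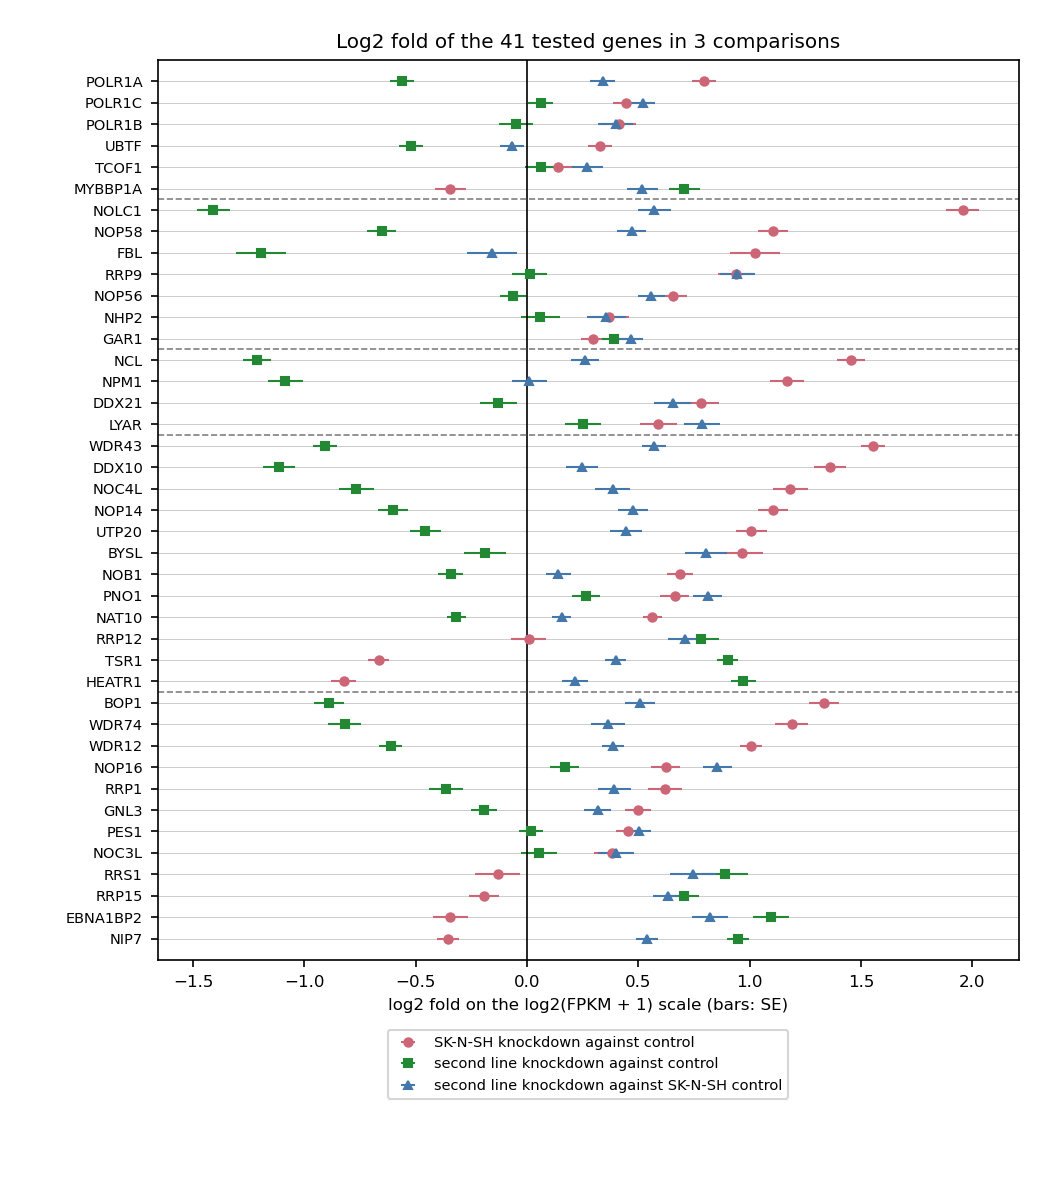
Log2 difference of the 41 tested genes (rows, with broken lines between roles) on the log2(FPKM + 1) scale, with SE bars, for the labelled knockdown against control in SK-N-SH (circles) and the second line (squares) and for the second line knockdown against the SK-N-SH control (triangles). Circles and squares lie on opposite sides of 0 for most genes, and all triangles except those of UBTF and FBL lie above 0.

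The wider pathway was described with 122 further genes of polymerase I transcription, snoRNPs and subunit assembly, of which 121 were tested. In SK-N-SH 82 rose and 23 fell, in the second line 41 rose and 56 fell, and between the second line knockdown and the SK-N-SH control libraries 86 were higher and 5 lower (all genes: 40.7% and 39.0%, 39.9% and 40.2%, and 26.9% and 17.2%). Between SK-N-SH knockdown libraries and second line controls, 0 were higher and 2 lower (2.26% and 3.12% of all genes). Those 2 were RPF1, a large subunit processing factor, lower by 0.34 (adjusted p = 0.00687), and AATF, lower by 0.21 (adjusted p = 0.0486, limma).

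The extremes of that list were larger than most members. RRP7A, a small subunit factor, was at 4.98, 4.77 and 4.48 FPKM in the SK-N-SH controls and 16.5, 16.2 and 20.4 in the SK-N-SH knockdown libraries, a rise of 3.73-fold (adjusted p = 1.93e-09, limma), with 15.9% of its exonic bases shared with other genes. FTSJ3, an rRNA methyltransferase of the large subunit route, was the steepest mover against the majority. It was at 47.3, 46.1 and 42.5 FPKM in the SK-N-SH controls, 12.4, 13.3 and 13.0 in the SK-N-SH knockdown libraries, 13.1, 12.4 and 13.2 in the second line controls and 62.9, 58.7 and 62.1 in the second line knockdown libraries, with 16.8% of its bases shared, most of them with PSMC5.

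FTSJ3 was 3.52-fold lower in SK-N-SH (adjusted p = 4.63e-11) and 4.75-fold higher in the second line (adjusted p = 6.07e-12, limma), beyond any of the 6 members with that order. TAF1D, a subunit of the polymerase I selectivity factor whose introns and exons hold 8 snoRNA genes, had means of 12.2, 35.2, 33.7 and 10.3 FPKM and was 3.27-fold lower in the second line (adjusted p = 3.57e-10). Between the second line knockdown and the SK-N-SH control libraries, NOL6, a small subunit factor, was 1.89-fold higher (adjusted p = 9.78e-06) and NOP53, a large subunit factor, 1.42-fold lower (adjusted p = 0.000151).

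The ribosomal proteins themselves are given for comparison. Of 40 cytosolic ribosomal protein genes, 27 were higher and 7 lower in the SK-N-SH knockdown libraries, 4 higher and 29 lower in the second line knockdown libraries, and 0 higher, 12 lower and 28 not called in the second line knockdown against the SK-N-SH control libraries. In that last comparison 17.2% of all genes were lower (23.1% when rescaled by total reads) and 26.9% higher, and in the others about equal shares went each way, as given above. Their summed level was 13100 to 14100 FPKM in the SK-N-SH controls, 15900 to 19500 in the SK-N-SH knockdown libraries, 15700 to 17500 in the second line controls and 10900 to 13100 in the second line knockdown libraries. Most of these genes have processed pseudogenes that can take reads, so single values are uncertain.

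Proliferation genes, a list of 20 cell cycle and replication genes, had 19 rises and 0 falls in SK-N-SH (40.7% and 39.0% of all genes), 0 rises and 16 falls in the second line (39.9% and 40.2%), and 8 rises and 0 falls between the second line knockdown and the SK-N-SH control libraries (26.9% and 17.2%). Their median log2 difference in the second line was -1.38, where the members divided around a median of -0.13. Summed, they stood at 317 to 421 FPKM, 996 to 1070, 1090 to 1110 and 382 to 535 in the order of groups used here. The part of cell division in the members' differences was not tested.

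A genomic feature was also more frequent among the members than among the tested protein-coding genes. Of the 42, 6 carry snoRNA genes within their own bounds on the same strand (14.3%), as do 1.67% of 12210 tested protein-coding genes, with 23 snoRNA genes in all: 6 in GNL3, 5 in NOP56, 4 in NOP58, 3 each in NCL and WDR43, and 2 in TSR1. These hosts did not move together, since NCL, NOP58, WDR43 and GNL3 rose in SK-N-SH and fell in the second line, NOP56 rose in SK-N-SH and TSR1 did the reverse.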

How the data were processed

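RNA levels of 12 libraries were taken from the table of FPKM that the authors deposited. HISAT2 2.0.5, featureCounts 1.5.0-p3 and the build mm10 are named per the submitters' processing notes; the positions of all 58735 genes in the table equal GENCODE 29 on GRCh38, so that build is used here. FPKM times length was a whole multiple of a step for 100% of values (tolerance 0.05 reads), which gave whole reads, and the authors' FPKM denominator followed median-of-ratios size factors. 0 columns belonged to no sample.

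Groups came from titles and genotype labels. log2(FPKM + 1) of the 15856 genes averaging at least 0.5 FPKM was fitted in limma 3.58.1 (R 4.3.3) with 4 group means, variance trend and Benjamini-Hochberg adjustment over all genes tested (two-sided, threshold 0.05); each comparison is a contrast of that fit. Folds are ratios of mean FPKM and log2 differences are on the log2(FPKM + 1) scale, which understates changes of low genes. Steps were tested on simulated data. Alternatives were another pseudocount, other filters, rescaling by total reads, a replicate block, voom on recovered reads, only the groups compared and each library left out.

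The members, gene lists, tests and rules were chosen with earlier results of these data known. Named by library are the members with the largest differences in each role and line, those rising in both lines, and the largest calls across lines; of other pathway genes, the largest rise and fall in each comparison. AATF was named after its value was seen.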

Additional observations from a re-analysis of the deposited data

Results flagged for a closer look

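The labelled knockdown effect differed between the second line and SK-N-SH for 39 members by a test of the difference itself (limma, Benjamini-Hochberg adjusted over all genes tested, adjusted p from 3.36e-11 for WDR43 to 0.0362 for NHP2). The values are log2 effects in the second line minus those in SK-N-SH, so a negative value marks a member that went down in the second line relative to SK-N-SH; the targeted gene itself had a difference of -1.33. Among the polymerase I genes, the difference was -1.36 for POLR1A, -0.85 for UBTF, -0.46 for POLR1B and -0.38 for POLR1C. It was positive in MYBBP1A at 1.05. Among the snoRNP genes, the difference was -3.37 for NOLC1, -2.22 for FBL, -1.76 for NOP58, -0.93 for RRP9, -0.72 for NOP56 and -0.31 for NHP2. Among the nucleolar chaperones and helicases, the difference was -2.67 for NCL, -2.25 for NPM1, -0.91 for DDX21 and -0.34 for LYAR. Among the small subunit factors, the difference was -2.48 for DDX10, -2.46 for WDR43, -1.95 for NOC4L, -1.70 for NOP14, -1.46 for UTP20, -1.15 for BYSL, -1.03 for NOB1, -0.88 for NAT10 and -0.40 for PNO1. It was positive in HEATR1 at 1.80, TSR1 at 1.57 and RRP12 at 0.78. Among the large subunit factors, the difference was -2.22 for BOP1, -2.01 for WDR74, -1.62 for WDR12, -0.98 for RRP1, -0.69 for GNL3, -0.45 for NOP16, -0.44 for PES1 and -0.33 for NOC3L. It was positive in EBNA1BP2 at 1.44, NIP7 at 1.31, RRS1 at 1.02 and RRP15 at 0.90. TCOF1 and GAR1 were not called. The share of all tested genes called in this comparison was 84.9%, so most genes of the table would be listed by the same rule.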

How the results depend on the processing

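Among the named members, 763 values kept their call, or stayed without one, under the alternatives, 17 lost the call and 0 called values reversed. A value without a call could change sign and still count among the 763. These counts covered 3 of the 6 comparisons, and the one in which GAR1 alone was called was not among them. Leaving out 1 library at a time gave 32 to 33 rises and 5 to 6 falls in SK-N-SH, 10 to 12 and 19 to 20 in the second line, 8 and 30 to 31 for the difference between lines, 31 to 32 and 4 to 5 between the controls, 0 to 1 and 0 between second line control and SK-N-SH knockdown, and 36 to 37 and 0 between SK-N-SH control and second line knockdown. Rescaling by total reads gave 1 member lower in the last of these, where 0 was the count otherwise. Without members sharing at least 10% of exonic bases, chosen after seeing the data and with fewer genes counted, there were 2 falls in SK-N-SH, 5 rises in the second line, 3 positive differences between lines and 1 gene lower in the second line control than in the SK-N-SH control. The shares of all genes called in these directions were 39.0%, 39.9%, 41.8% and 38.9%, in that order. GAR1, the member called between second line control and SK-N-SH knockdown, was lost with no filter on low values (0 called), where more genes were tested; the cause of its other losses was not tested.

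The libraries share replicate numbers across groups, but the numbers did not pair them: deviations of same-numbered libraries from their group means correlated at -0.075 to 0.102 over 18 pairs, and a library's best match in another group had its own number in 10 of 36 cases. With the replicate block, 0 members were called higher between second line control and SK-N-SH knockdown in place of 1, and the counts of members called in the other comparisons did not change. Levels of the tested members rested on at least 284 reads, and those of NOP2 on 19 to 47.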
